A study of Mus musculus with 14 samples.

Results

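The genes described here are the 4 inhibitor of DNA binding genes Id1, Id2, Id3 and Id4 and 6 genes of bone morphogenetic protein (BMP) signalling, Bmp4, Bmpr1a, Bmpr2, Bambi, Smad6 and Smad7, in the mouse preadipocyte line 3T3-L1. They are 10 of the 18193 genes that could be named on the arrays, and all 10 were measured. The set was chosen by array values: Id4 was selected on its level in knockdown cells at day 7, and Bambi on its level in knockdown cells at day 0. Those values are therefore described and not tested, and so is every difference that uses the same arrays of these genes. Each gene is read from the probe set that carries its symbol alone and has the highest mean over the 14 arrays.

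The study lowered TP53INP2, a protein known from autophagy, in 3T3-L1 cells and measured RNA before and after fat cell differentiation. The 4 groups were KD TP53INP2 cells at day 0 (3 arrays), Control cells at day 0 (3 arrays), KD TP53INP2 cells at day 7 (4 arrays) and Control cells at day 7 (4 arrays). All cells had been transduced with a lentivirus, which encoded an siRNA sequence against TP53INP2 in KD cells and a scrambled sequence in Control cells. Day 0 was reached after confluence, and the cells were then kept in differentiation medium until day 7. A single cell line was used, so the arrays carry 1 genetic background. The labels number the replicates and do not say whether they were separate cultures, so a p-value here reflects variation among these arrays only, part or all of which could be technical.

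ID proteins are helix-loop-helix proteins without a DNA-binding basic region; they pair with basic helix-loop-helix factors and keep them from DNA. The ID genes are among the best-known direct targets of BMP signals: a ligand such as BMP4 joins type I and type II receptors, which phosphorylate SMAD1, SMAD5 and SMAD9, and these enter the nucleus with SMAD4. The inhibitory SMADs, SMAD6 and SMAD7, and the decoy receptor BAMBI dampen the pathway, and BMP4 is known to commit mesenchymal cells to the fat lineage.

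The start regions of 3 ID genes are shown because SMAD complexes are known to bind GC-rich elements near ID genes. The letters are the bases just upstream of the annotated gene start (RefSeq, build GRCm38.p6), read 5′ to 3′ on the strand of the gene, and capitals mark GGCGCC or GGAGCC on either strand. They lie at chr12:25096093-25096342 (minus strand) for Id2, chr4:136143572-136143821 (plus strand) for Id3 and chr13:48260866-48261115 (plus strand) for Id4.
Id2: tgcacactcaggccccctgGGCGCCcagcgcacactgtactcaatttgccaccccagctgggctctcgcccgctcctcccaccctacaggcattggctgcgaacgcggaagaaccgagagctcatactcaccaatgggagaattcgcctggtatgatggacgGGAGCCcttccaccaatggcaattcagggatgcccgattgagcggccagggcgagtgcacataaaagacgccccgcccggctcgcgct
Id3: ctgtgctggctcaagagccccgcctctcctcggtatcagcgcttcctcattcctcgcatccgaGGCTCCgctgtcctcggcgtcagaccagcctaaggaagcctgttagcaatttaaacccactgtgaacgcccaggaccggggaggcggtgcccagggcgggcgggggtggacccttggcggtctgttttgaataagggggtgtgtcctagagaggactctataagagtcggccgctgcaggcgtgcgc
Id4: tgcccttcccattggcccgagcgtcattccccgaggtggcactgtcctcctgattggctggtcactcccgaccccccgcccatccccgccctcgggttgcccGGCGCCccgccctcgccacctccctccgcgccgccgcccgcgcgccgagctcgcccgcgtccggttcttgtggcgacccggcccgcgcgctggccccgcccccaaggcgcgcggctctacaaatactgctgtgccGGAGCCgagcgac
Id2 held a GGCGCC 231 bases and a GGAGCC 88 bases before the start, and Id4 a GGCGCC 148 bases and a GGAGCC 13 bases before it. Id3 held 1 match, 187 bases before the start, printed as GGCTCC because GGAGCC lies on the other strand. The upstream windows of Bmp4, Bmpr1a, Bmpr2 and Smad6 also held at least 1 of these letter strings, so 7 of 7 windows searched did; those of Id1, Bambi and Smad7 were not analysed here. Of all 32851 promoters of the table cut to the same window, 9.59% held GGCGCC, 26.0% held GGAGCC and 31.7% held either. The 7 windows were also rich in G and C, at 62.8% to 78.8% of bases, beside a median of 52.4% over all promoters. A match of letters is a description and does not show binding.

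The labels were checked on Trp53inp2, the targeted gene. Its brighter probe set read 11.06 to 11.66 in KD cells and 12.38 to 12.53 in Control cells at day 0, and 10.01 to 10.45 in KD cells and 11.70 to 11.78 in Control cells at day 7 (log2 signal). A dimmer Trp53inp2 probe set was not lower in KD cells, with 5.30 to 5.46 in KD cells against 5.07 to 5.31 in Control cells at day 0. Array medians of the deposited log2 values lay between 5.44 and 5.57. At day 0 a measure of RNA quality differed between the genotypes: the 3′ minus 5′ difference of the beta-actin control probe sets was 2.74 to 3.23 in KD cells and 3.32 to 3.76 in Control cells, and that of Gapdh 1.59 to 1.90 in KD cells and 2.02 to 2.43 in Control cells. At day 7 the ranges of the genotypes overlapped. Replicates 1 and 2 lay close together in every group. The SD of their difference over genes, with the dimmest 40% left out, was 0.111 to 0.246, against 0.307 to 0.541 for other pairs.

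The cells were checked against markers of the labelled types. The mean level of 10 fat cell markers was 6.65 to 7.70 in KD cells and 6.66 to 7.32 in Control cells at day 0. It was 9.92 to 11.01 in KD cells and 8.96 to 10.47 in Control cells at day 7. In either genotype 8 of the 10 markers passed the test for day 7 over day 0, where 19% of all genes in KD cells and 10.1% in Control cells rose. The mean levels of markers of macrophages (4.23 to 4.95 over all arrays), endothelial cells (2.97 to 3.67) and bone (3.53 to 4.03) stayed below the array medians, while that of 4 cartilage markers was 5.31 to 6.44. The arrays hold whole cultures, so fewer cells of a type and less RNA per cell cannot be told apart.

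**Figure D1:**
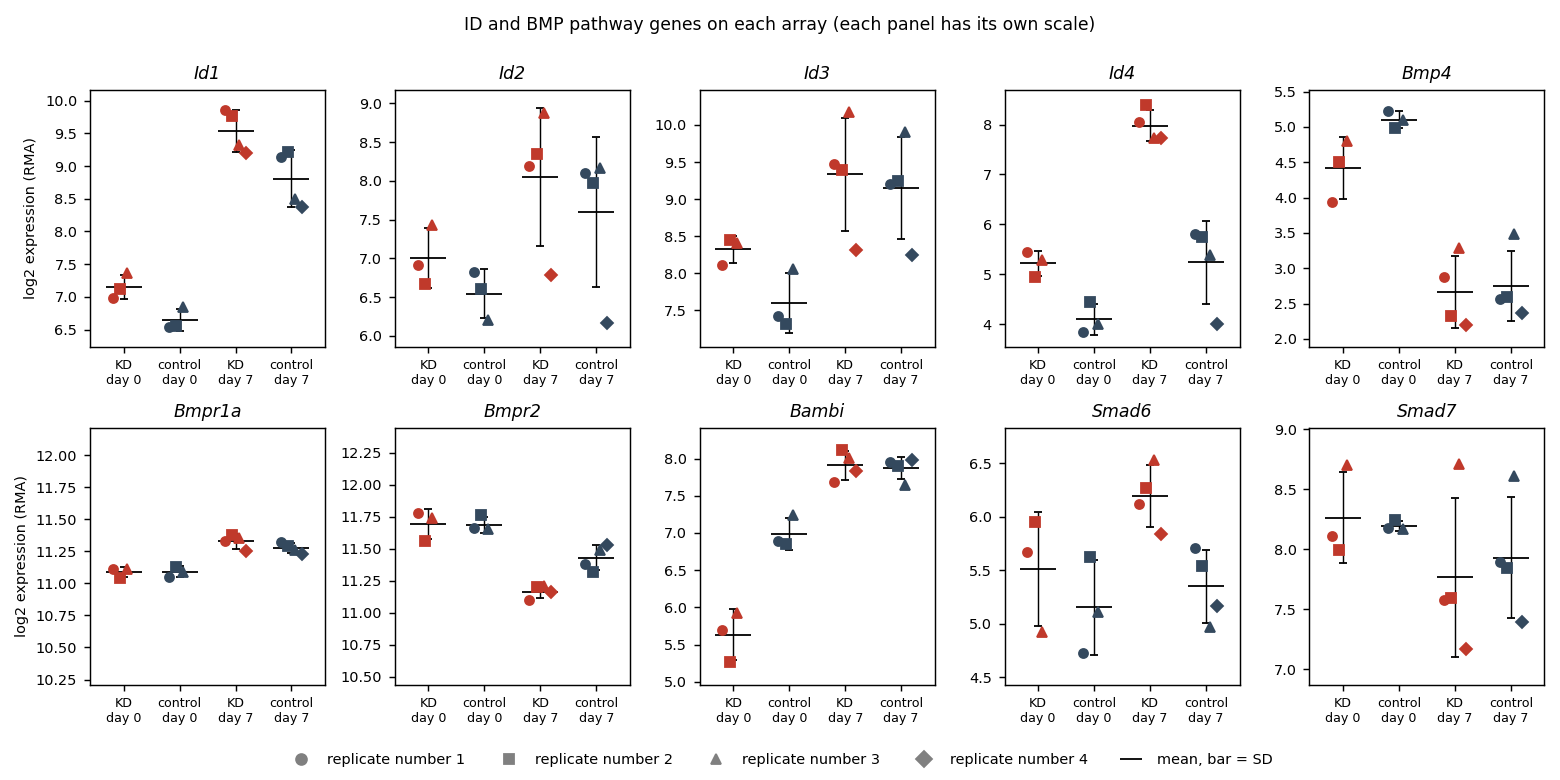
Log2 signal (vertical axis, RMA values as deposited) of the 10 genes in each of the 14 arrays, with a point per array and a line and bar at each group's mean ± SD. KD cells at day 7 stand above the other 3 groups in Id4 (7.73 to 8.39), and KD cells at day 0 stand below the other 3 groups in Bambi (5.26 to 5.93); levels of different genes are not comparable, since each probe set has its own scale.

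Among the inhibitors of DNA binding, Id4 (probe set 1423259_at) showed the widest separation of the groups. At day 7 its log2 signal was 8.06, 8.39, 7.74 and 7.73 in KD cells, against 5.81, 5.74, 5.39 and 4.01 in Control cells. Every KD array was above every Control array, and the Control array of replicate 4 was well below the other 3. The difference of the means was 2.74 ± 0.33 (SE), a 6.69-fold higher signal in KD cells, and it ranged over 1.96 to 2.93 under 25 other ways of processing. This value helped to choose the gene, so no test is attached to it.

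At day 0, where the choice did not use its values, Id4 read 5.44, 4.94 and 5.28 in KD cells, against 3.85, 4.44 and 4.01 in Control cells. The groups did not overlap, and the signal was 2.17-fold higher in KD cells, a log2 difference of 1.12 ± 0.39 (95% confidence interval 0.29 to 1.95). It did not pass the test over all genes (limma, adjusted p = 0.178). Without the Control day 7 array of replicate 4, which enters only through the shared estimate of spread, the adjusted p was 0.0251, and over all 25 alternatives it lay between 0.0251 and 0.627. In order of level, KD cells at day 7 (mean 7.98) came first. Control cells at day 7 (5.24) and KD cells at day 0 (5.22) overlapped each other, and Control cells at day 0 (4.10) were below KD cells at day 0 but overlapped Control cells at day 7.

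Id4 has 3 probe sets of its own. Set 1450928_at gave nearly the same differences, 2.70 at day 7 and 1.12 at day 0 (KD minus Control). The dimmest, 1423260_at, gave 0.42 and 0.10. The separation is thus seen in 2 of the 3 sets. Each probe set has its own scale, and their levels were not compared.

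Id1 (1425895_a_at), the ID gene most often used as a readout of BMP signals, had higher means in KD cells on both days, with smaller differences. At day 7 it read 9.86, 9.77, 9.32 and 9.20 in KD cells, against 9.14, 9.21, 8.49 and 8.37 in Control cells. The groups touched, since the lowest KD array was just under the highest Control array. The difference was 0.73 ± 0.21, a 1.66-fold higher signal, and lay at the edge of the threshold (limma, adjusted p = 0.0539). The fit with the replicate number as a block gave an adjusted p of 0.0328, and the fit with a separate block for each day 0.00305. Without KD day 7 replicate 3 it was 0.033 and without Control day 7 replicate 2 it was 0.0403, while averaging replicates 1 and 2 gave 0.217, the highest of 25 alternatives.

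At day 0 Id1 read 6.99, 7.12 and 7.36 in KD cells, against 6.54, 6.56 and 6.85 in Control cells. The groups did not overlap, and the difference was 0.51 ± 0.24 (95% confidence interval -0.02 to 1.03; limma, adjusted p = 0.338). Set against the Control array of the same number, the KD arrays were higher by 0.45 to 0.56 at day 0 and by 0.55 to 0.84 at day 7. With a block for each day the day 0 difference passed (adjusted p = 0.0236), and over the 25 alternatives the adjusted p ranged up to 0.759.

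Id3 (1416630_at) read 8.11, 8.45 and 8.41 in KD cells at day 0, against 7.43, 7.31 and 8.06 in Control cells. The groups did not overlap, though replicate 3 of the Control cells came close to the KD arrays. The difference was 0.72 ± 0.44 (95% confidence interval -0.23 to 1.67; limma, adjusted p = 0.482). With the replicate block it was 0.0329, and with a block for each day 0.0336. Averaging replicates 1 and 2 gave 0.892. At day 7 Id3 read 9.47, 9.39, 10.17 and 8.32 in KD cells, against 9.21, 9.24, 9.91 and 8.24 in Control cells. The 2 groups lay over each other almost entirely, with a difference of 0.19 ± 0.38 (interval -0.64 to 1.01; limma, adjusted p = 0.826).

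Id2 (1435176_a_at) varied more between replicates than between genotypes. At day 7 it read 8.19, 8.34, 8.87 and 6.79 in KD cells, against 8.10, 7.97, 8.17 and 6.16 in Control cells. Replicate 4 was the lowest array of both genotypes by more than a log2 unit. The difference was 0.45 ± 0.48 (95% confidence interval -0.59 to 1.48; limma, adjusted p = 0.632). At day 0 Id2 read 6.91, 6.67 and 7.43 in KD cells, against 6.82, 6.60 and 6.21 in Control cells, a difference of 0.46 ± 0.55 with overlapping groups (limma, adjusted p = 0.770).

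Within pairs of the same number, all 4 ID genes were higher in the KD array in 3 of 3 pairs at day 0 and in 4 of 4 pairs at day 7. Of all genes, 15% were higher in every pair at day 0, 19.4% at day 7 and 5.19% on both days. The day 7 pairs of Id4 belong to the values that chose it. For Id2 and Id3 the smallest pair differences were 0.06 and 0.35 at day 0 and 0.09 and 0.08 at day 7, so some pairs stood close to 0. Deviations of arrays of the same number correlated within a day (0.225 to 0.736), and only weakly between days (0.00401 to 0.218). At day 7 KD array 1 correlated more with Control array 2 (0.611) than with Control array 1 (0.524). Whether equal numbers pair arrays 1 and 2 is therefore not settled.

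**Figure D2:**
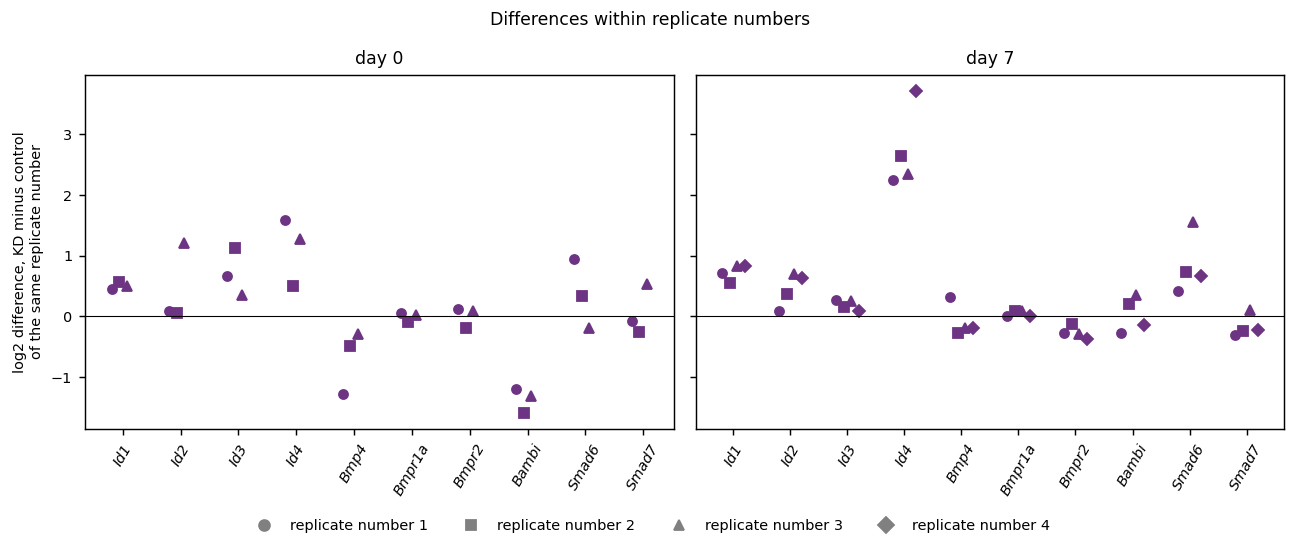
KD minus Control log2 difference (axis in log2 units) of the 2 arrays that share a replicate number, for the 10 genes at day 0 (3 pairs) and day 7 (4 pairs), with a point per pair. All points of the 4 ID genes lie above 0, and all 3 day 0 points of Bambi lie between -1.59 and -1.19.

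The ligand gene Bmp4 (1422912_at), which encodes a signal that acts on preadipocyte commitment, read 3.94, 4.50 and 4.80 in KD cells at day 0, against 5.22, 4.98 and 5.10 in Control cells. Every KD array was below every Control array. The difference was -0.69 ± 0.33 (95% confidence interval -1.39 to 0.02) and did not pass (limma, adjusted p = 0.338; 0.0931 to 0.814 over 24 alternatives). At day 7 Bmp4 read 2.88, 2.32, 3.29 and 2.19 in KD cells, against 2.57, 2.59, 3.48 and 2.37 in Control cells. These groups overlapped, with a difference of -0.09 ± 0.28 (interval -0.70 to 0.53; limma, adjusted p = 0.900), at values that are low for these arrays.

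Of the receptor genes, Bmpr1a (1425493_at) encodes a type I receptor of BMP4. At day 0 it read 11.04 to 11.11 in KD cells and 11.05 to 11.13 in Control cells, and at day 7 11.25 to 11.38 in KD cells and 11.23 to 11.32 in Control cells. The 95% confidence intervals of the KD minus Control difference were -0.16 to 0.15 at day 0 and -0.09 to 0.19 at day 7, the narrowest of the 10 genes. Among its 5 other probe sets the dim 1445413_at gave -0.66 at day 0 and -0.06 at day 7, and the other 4 gave -0.11 to 0.02 at day 0 and -0.04 to 0.09 at day 7. Bmpr2 (1434310_at), the type II receptor, read 11.10, 11.20, 11.21 and 11.16 in KD cells at day 7, against 11.38, 11.32, 11.49 and 11.53 in Control cells. All KD arrays were lower, by a small amount: the difference was -0.26 ± 0.08 (limma, adjusted p = 0.061; 0.0456 without KD day 7 replicate 3; 0.027 to 0.474 over 25 alternatives). Its other probe sets did not show this difference, since 1419616_at gave -0.04 and the dim set 1441652_at gave 0.69. At day 0 Bmpr2 read 11.56 to 11.78 in KD cells and 11.65 to 11.76 in Control cells, which overlapped (difference 0.01, interval -0.19 to 0.20). There set 1419616_at gave 0.38 ± 0.13 (limma over all probe sets, adjusted p = 0.144), and the dim set 1441652_at gave 0.07.

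Bambi (1423753_at), which encodes a receptor-like protein without a kinase domain that blocks BMP and TGF-beta receptors, differed at day 0. It read 5.70, 5.26 and 5.93 in KD cells, against 6.89, 6.85 and 7.24 in Control cells. The groups lay far apart, and the signal was 2.57-fold lower in KD cells, a log2 difference of -1.36 ± 0.18 that ranged over -1.51 to -1.18 under 25 alternatives. This is the value that chose the gene and has no test. The 3′ minus 5′ control differences given above moved with the same day 0 groups, and their part in the day 0 values of these genes was not tested.

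At day 7 the 2 genotypes met. Bambi read 7.68, 8.11, 8.01 and 7.83 in KD cells, against 7.96, 7.90, 7.65 and 7.98 in Control cells. The groups overlapped fully, and the difference was 0.04 ± 0.15 (95% confidence interval -0.29 to 0.37; limma, adjusted p = 0.925). In order of level, KD and Control cells at day 7 (means 7.91 and 7.87) could not be separated, Control cells at day 0 came next (6.99) and KD cells at day 0 were lowest (5.63), with no overlap between these steps.

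Smad6 (1422771_at), an inhibitory SMAD that acts mainly on BMP receptors, read 6.12, 6.27, 6.53 and 5.84 in KD cells at day 7, against 5.71, 5.54, 4.97 and 5.17 in Control cells. All KD arrays were above all Control arrays, at a 1.79-fold higher signal. The difference was 0.84 ± 0.26 (limma, adjusted p = 0.0674), and the adjusted p was 0.0462 with the replicate block, 0.0419 with a block for each day, 0.0418 without KD day 0 replicate 3 and 0.198 with replicates 1 and 2 averaged. These are also the ends of its range over 25 alternatives. At day 0 Smad6 read 5.67, 5.95 and 4.92 in KD cells, against 4.73, 5.62 and 5.11 in Control cells, which overlapped (0.36 ± 0.29; limma, adjusted p = 0.630). Smad7 (1423389_at), the inhibitory SMAD that acts on TGF-beta and BMP receptors alike, spanned 7.99 to 8.70 in KD cells and 8.17 to 8.24 in Control cells at day 0. It spanned 7.17 to 8.71 in KD cells and 7.39 to 8.61 in Control cells at day 7. The differences were 0.07 ± 0.36 and -0.16 ± 0.31 (limma, adjusted p = 0.961 and 0.812).

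Over the genes, 0 of the 9 tested at day 0 passed, where 1.8% of all genes did, and 1 of the 9 had an unadjusted p under 0.05 (limma). At day 7 0 of the 9 tested passed, where 6.58% of all genes did, and 3 of the 9 had an unadjusted p under 0.05. With the replicate block 1 of the 9 passed at day 0 (3.14% of all genes) and 2 at day 7 (10.2% of all genes), and with a block for each day 2 at day 0 (4.64%) and 2 at day 7 (14.7%). Groups that did not overlap were found in 5 of the 10 genes at day 0 (Id1, Id3 and Id4 higher, Bmp4 and Bambi lower), against 22.6% of all genes (6.89% higher and 15.7% lower). They were found in 3 of the 10 at day 7 (Id4 and Smad6 higher, Bmpr2 lower), against 13% of all genes (6.02% higher and 6.96% lower). Bambi at day 0 and Id4 at day 7 are in these counts through the choice of the genes. The median KD minus Control difference over the 9 genes tested on each day was 0.36 at day 0 and 0.05 at day 7, beside -0.05 and -0.02 over all genes.

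**Figure D3:**
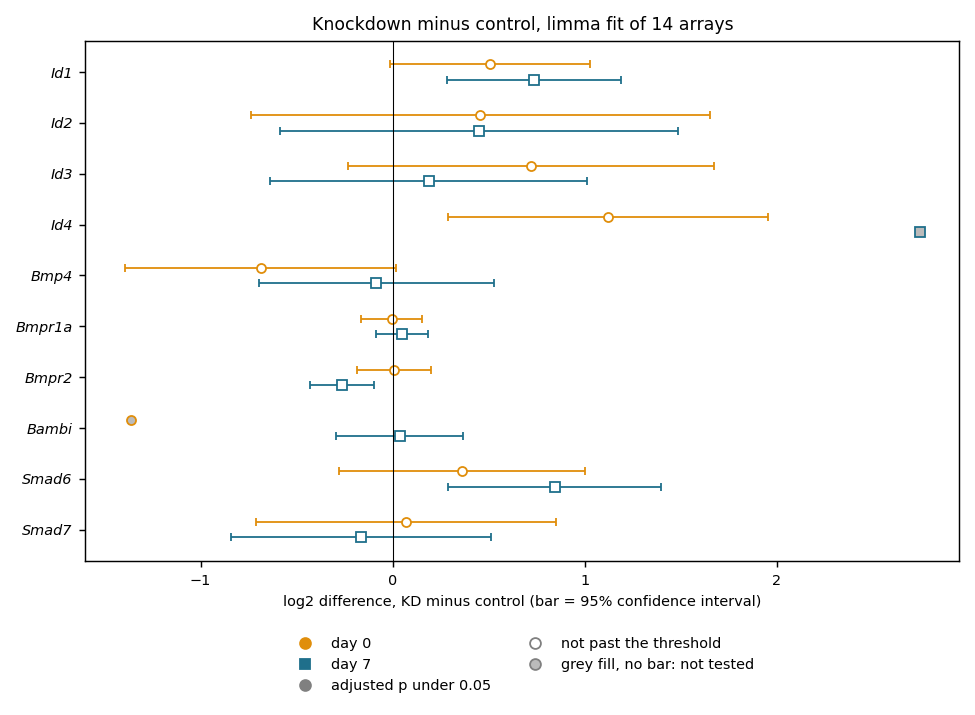
KD minus Control log2 difference of the 10 genes at day 0 (circles) and day 7 (squares), with 95% confidence intervals from the limma fit of 14 arrays. No symbol is filled, since 0 of the tested differences passed; grey fill without a bar marks Bambi at day 0 (-1.36) and Id4 at day 7 (2.74), which were not tested.

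Marker means differed between the genotypes at day 7, where the median difference over all genes was -0.02. Of all genes 6.58% passed at day 7, 3.57% as lower and 3.01% as higher. The 10 fat cell markers all had higher means in KD cells (median difference 1.04), with 0 of 10 past the test and the ranges of their mean level given above overlapping. Of 7 preadipocyte and fibroblast markers 0 had a higher mean in KD cells (median difference -0.49). Pdgfra and Col3a1, named after their values were seen, were the 2 that passed the test as lower. The mean level of the list was 10.32 to 11.09 in KD cells and 10.91 to 11.20 in Control cells. Of 4 skeletal muscle markers 3 had higher means in KD cells, and 1 passed the test as higher, Des, also named after its value was seen. The mean level of the 4 cartilage markers was 5.31 to 5.85 in KD cells and 5.85 to 6.19 in Control cells, with 4 of 4 lower in KD cells (median -0.36) and 0 of 4 past the test. The part of these lists in the day 7 values of the ID genes and Smad6 was not tested.

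The question whether the effect of the knockdown differed between the days was tested as a difference of differences. Of the 8 genes tested 0 passed, where 0.022% of all genes did, and 1 of the 8 had an unadjusted p under 0.05, Bmpr2 (-0.27 ± 0.12; limma, adjusted p = 0.348). For Id4 and Bambi the same quantity is a description: the KD minus Control difference was larger at day 7 by 1.62 ± 0.51 for Id4, and at day 7 it was 1.40 ± 0.23 above the day 0 value for Bambi. For the other ID genes the intervals were wide, at -0.46 to 0.92 for Id1, -1.59 to 1.57 for Id2 and -1.79 to 0.73 for Id3. The intervals include a loss of a log2 unit for Id2 and Id3 and a gain of that size for Id2.

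Differentiation was compared next, on the same arrays as the knockdown. In the main fit, on the probe set used for each gene, Id1 rose and Bmp4 and Bmpr2 fell in both genotypes. In the same fit Bmpr1a rose in KD cells and Id3 rose in Control cells. In KD cells 4 of the 8 genes tested passed, where 35.8% of all genes did, and in Control cells 4 of the 8 passed, where 22.9% of all genes did. All genes too passed more often here than for the knockdown. Groups that did not overlap were found in 6 of the 10 genes in KD cells (39.3% of all genes) and in 6 of the 10 in Control cells (32.8% of all genes). These counts include Id4 and Bambi in KD cells and Bambi in Control cells, whose arrays chose the genes; over the 8 tested genes they are 4 and 5. The median day 7 minus day 0 difference over the 8 tested genes was 0.46 in KD cells and 0.19 in Control cells, beside 0.01 and -0.01 over all genes.

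Id1 had the clearest rise. The day 7 minus day 0 difference was 2.38 ± 0.23 in KD cells (5.22-fold; limma, adjusted p = 6.39e-06) and 2.16 ± 0.23 in Control cells (4.45-fold; limma, adjusted p = 3.76e-05). It passed in 24 of 24 alternatives in each genotype. Every day 7 array was far above every day 0 array of its genotype. In Control cells the Gapdh 3′ minus 5′ difference also moved with the days, at 1.24 to 1.79 at day 7 and 2.02 to 2.43 at day 0, and its part in the differences between days was not tested.

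Bmp4 fell by 1.74 on the log2 scale in KD cells (limma, adjusted p = 0.000612) and by 2.35 in Control cells (limma, adjusted p = 0.000171), and it passed in 23 of 23 alternatives in each. The ligand gene therefore fell where Id1 rose. The day 7 values of Bmp4 are low and the files hold no detection calls, so whether they lie above background is not known here and these falls may understate the change. Bmpr2 fell by 0.53 in KD cells (limma, adjusted p = 0.000291). In Control cells it fell by 0.26 (limma, adjusted p = 0.0414), a call that held in 10 of 24 alternatives. It was lost in 8 of the 14 fits that left out an array, with adjusted p between 0.0345 and 0.149 over the 14. It was also lost with replicates 1 and 2 averaged (0.237) and with the replicate block (0.0504). With the dim set 1441652_at the day 7 minus day 0 difference of Bmpr2 was -0.00298 in KD cells and -0.62 in Control cells. With 1419616_at it was -0.55 in KD cells and -0.13 in Control cells. On the probe set used, Bmpr1a rose by 0.24 ± 0.07 in KD cells (limma, adjusted p = 0.0141; 0.054 without KD day 0 replicate 2 and 0.13 with replicates 1 and 2 averaged). It passed in 18 of 24 alternatives, and not with the mean over probe sets (limma, adjusted p = 0.156). Sets 1425491_at, 1425494_s_at and 1445413_at gave 0.34, 0.31 and 0.32, while 1425492_at gave -0.05 and 1451729_at -0.16. In Control cells the difference of Bmpr1a was 0.19 ± 0.07 (limma, adjusted p = 0.0662), with groups that did not overlap. Its other sets gave -0.28 to 0.27 there.

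Id3 rose by 1.55 ± 0.41 in Control cells (limma, adjusted p = 0.016), and the adjusted p was 0.0606 without Control day 0 replicate 1, 0.0663 without Control day 0 replicate 2 and 0.188 with replicates 1 and 2 averaged. In KD cells its difference was 1.02 ± 0.41 (limma, adjusted p = 0.0732), where leaving out the 2 day 7 arrays of replicate 4 gave 1.36 (adjusted p = 0.00285). Without the KD array of replicate 4 alone the adjusted p was 0.0122, and without the Control array of replicate 4 alone 0.0438. Id2 had differences of 1.05 ± 0.52 in KD cells and 1.06 ± 0.52 in Control cells, which did not pass (limma, adjusted p = 0.142 and 0.176). Without both day 7 arrays of replicate 4 these were 1.47 (adjusted p = 0.00071) and 1.54 (adjusted p = 0.000996). Leaving out the replicate 4 array of the genotype alone gave adjusted p = 0.0273 in KD cells and 0.0196 in Control cells.

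At day 7 replicate 3 was the highest and replicate 4 the lowest array in both genotypes for Id2, Id3, Smad7 and Bmp4. This order was found in 4 of the 10 genes and in 2.54% of all genes. Only this order was counted, and it was picked with the values of these genes known. These shares are therefore a description and not a test of enrichment. The order was not seen in Id1, Id4, Bambi, Smad6 or either receptor. The day 7 spread of Id2, Id3 and Smad7 was thus shared between the KD and Control arrays of a number. For Id2 the day 7 SD was 0.89 in KD cells and 0.97 in Control cells (n = 4 each).

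Smad6 differed between the days by 0.68 ± 0.28 in KD cells and 0.20 ± 0.28 in Control cells (limma, adjusted p = 0.075 and 0.695). The KD value passed without KD day 0 replicate 2 (adjusted p = 0.0387). Smad7 differed by -0.50 ± 0.34 in KD cells and -0.26 ± 0.34 in Control cells (limma, adjusted p = 0.295 and 0.659), and the KD value passed without KD day 7 replicate 3 (adjusted p = 0.0305). Described without a test, Id4 was higher at day 7 by 2.76 in KD cells and by 1.14 in Control cells. These ranged over 1.71 to 3.01 and over 0.53 to 1.55 under 24 alternatives. Set 1450928_at of Id4 gave 1.73 in KD cells and only 0.15 in Control cells, and 1423260_at gave 0.63 and 0.31. Bambi was higher at day 7 by 2.28 in KD cells and by 0.88 in Control cells. The KD and Control effects of differentiation are read from different arrays, and their difference is the difference of differences given above.

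**Figure D4:**
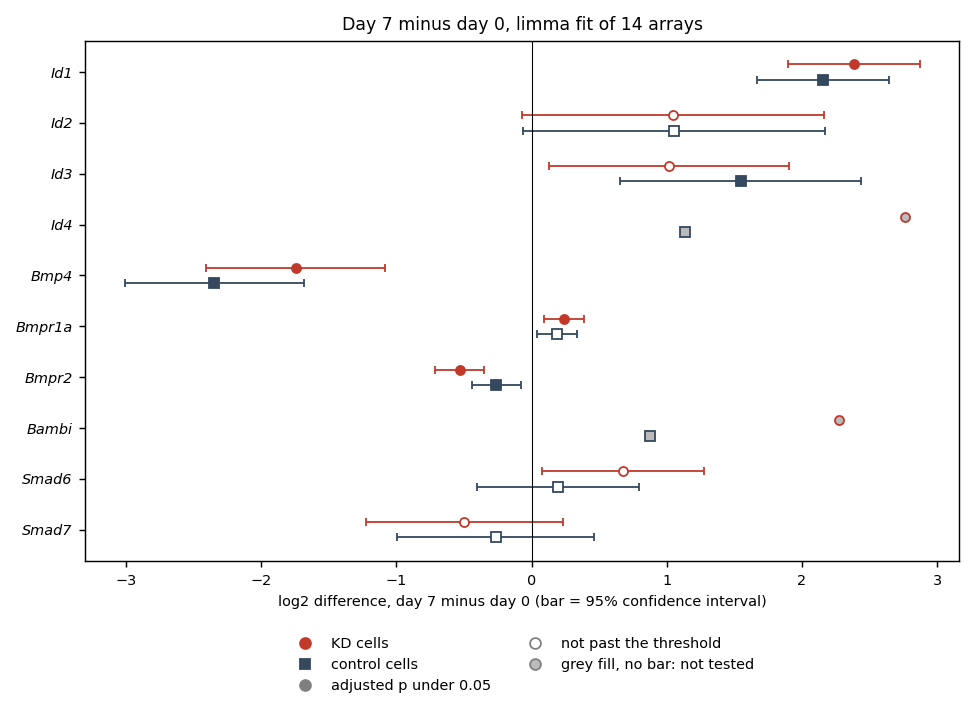
Day 7 minus day 0 log2 difference of the 10 genes in KD cells (circles) and Control cells (squares), with 95% confidence intervals from the limma fit of 14 arrays; filled symbols passed the test, and grey fill without a bar marks Id4 and Bambi, which were not tested. Id1 lies near 2.38 and 2.16, and Bmp4 lies at -1.74 and -2.35.

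The wider pathway was tested in the same fit. Of 91 measured genes in 7 lists of BMP, TGF-beta and helix-loop-helix genes, 1 passed at day 0 and 4 passed at day 7, all lower in KD cells, and 0 passed for the difference between the days (limma). Over all genes 1.8% passed at day 0 (1.34% lower), 6.58% at day 7 (3.57% lower) and 0.022% for the difference, so these counts are near the share of all genes. The lists were chosen with earlier results of these data known. At day 0 the gene was Acvrl1, a type I receptor known from endothelial BMP9 signalling, with a mean of 4.58 in KD cells and 5.76 in Control cells (-1.18 ± 0.27; limma, adjusted p = 0.0478). This call was lost in 11 of the 14 fits that left out an array, with adjusted p up to 0.17, and with replicates 1 and 2 averaged (0.143).

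At day 7 the 3 largest of these changes were in Bmper, Fstl1 and Smad3. Bmper encodes a secreted BMP-binding modulator, and it had a mean of 9.93 in KD cells and 10.89 in Control cells (-0.95 ± 0.19; limma, adjusted p = 0.0134). Fstl1, a secreted follistatin-like protein that can bind BMP4, had -0.85 ± 0.21 (limma, adjusted p = 0.0343), and leaving out an array lost this call in 6 of 14 fits, with adjusted p up to 0.107. Smad3, a TGF-beta receptor SMAD, had a mean of 10.92 in KD cells and 11.65 in Control cells (-0.73 ± 0.11; limma, adjusted p = 0.00302). The type II TGF-beta receptor gene Tgfbr2, named after its value was seen, completed the 4, at -0.44 ± 0.08 (limma, adjusted p = 0.00849). Averaging replicates 1 and 2 left 0 of the 4, with an adjusted p of 0.0829 for Smad3 and 0.161 for Bmper. Leaving out both day 7 arrays of replicate 4 gave an adjusted p of 0.0601 for Bmper and 0.186 for Fstl1.

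By list at day 7, 0 of 10 other BMP family ligands, 0 of 10 receptors and co-receptors, 0 of 14 SMADs and intracellular regulators, 0 of 11 known BMP targets outside the ID genes and 0 of 16 helix-loop-helix genes passed. Among 17 secreted antagonists and modulators 2 were lower, and among 13 TGF-beta branch genes 2 were lower, where 3.57% of all genes passed as lower. With the replicate block 6 of the 91 passed, 5 lower and 1 higher, and with a block for each day 11 passed, 8 lower and 3 higher, where 10.2% and 14.7% of all genes passed. The 3 higher, named after their values were seen, were the ligand gene Gdf5 (0.84; limma, adjusted p = 0.0417 with the replicate block and 0.0191 with a block for each day), Ebf2 (1.05; 0.00698 with a block for each day) and the SMAD-binding factor gene Zfp423 (0.65; 0.0144 with a block for each day). Tcf4, a partner of ID proteins, was among the lower ones (-0.32; 0.0352 and 0.0414). The median difference was 0.24 for the known targets and -0.17 for the antagonists and modulators, beside -0.02 over all genes, and no test was made of these medians. With 3 or 4 arrays a group, changes smaller than these calls can be missed.

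Over differentiation the wider pathway changed mostly downward. In KD cells 10 of the 91 genes rose and 26 fell, and in Control cells 5 rose and 22 fell (19% and 16.8% of all genes in KD cells, 10.1% and 12.8% in Control cells). Of 13 TGF-beta branch genes 8 fell in KD cells and 9 in Control cells, and 0 rose. The largest falls in KD cells were in Thbs1, an extracellular activator of latent TGF-beta (-3.04 ± 0.74; limma, adjusted p = 0.00555), the BMP co-receptor gene Rgmb (-2.31 ± 0.17; adjusted p = 1.45e-06) and the secreted BMP antagonist gene Grem1 (-2.26 ± 0.63; adjusted p = 0.0127). In Control cells they were in Pmepa1, a TGF-beta-induced inhibitor of SMAD signalling (-2.73 ± 0.25; limma, adjusted p = 1.62e-05), Thbs1 (-2.28 ± 0.74; adjusted p = 0.0411) and Rgmb (-1.97 ± 0.17; adjusted p = 1.32e-05). The Thbs1 call in Control cells was lost in 10 of 14 fits that left out an array, with adjusted p up to 0.113. With replicates 1 and 2 averaged, the calls of Thbs1 in KD and Control cells (adjusted p = 0.0611 and 0.276) and of Grem1 in KD cells (0.115) were lost.

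The counts by list stand beside 16.8% of all genes that fell and 19% that rose in KD cells, and 12.8% and 10.1% in Control cells. Of the 10 receptors and co-receptors in the lists, 5 fell and 0 rose in each genotype. Of the 17 secreted antagonists and modulators 7 fell in KD cells and 2 in Control cells, a contrast that was tested gene by gene as the difference of differences, where 0 of 17 passed. Of 14 SMADs and intracellular regulators 3 rose and 4 fell in KD cells, and 2 rose and 4 fell in Control cells. The SMAD corepressor genes Ski and Skil, named after their values were seen, fell in both genotypes: Ski by 1.25 in KD cells and 0.82 in Control cells, and Skil by 0.80 in KD cells and 1.13 in Control cells.

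Of the helix-loop-helix genes, whose products include partners of ID proteins, 3 of 16 rose and 2 fell in each genotype. Among all genes 19% rose and 16.8% fell in KD cells, and 10.1% rose and 12.8% fell in Control cells. Myc, a growth-promoting basic helix-loop-helix factor, rose by 2.60 in KD cells (limma, adjusted p = 1.83e-06) and by 2.18 in Control cells (adjusted p = 1.94e-05). Ebf2, a regulator of the preadipocyte and brown fat state, rose by 1.59 in KD cells (limma, adjusted p = 0.00784; 0.0729 with replicates 1 and 2 averaged) and by 1.28 in Control cells (adjusted p = 0.0389). The Control call of Ebf2 was lost in 8 of 14 fits that left out an array, with adjusted p up to 0.161, and with replicates 1 and 2 averaged (0.242). Srebf1, a lipogenic basic helix-loop-helix factor, rose by 1.18 in Control cells (limma, adjusted p = 0.000747). Of 11 known BMP targets 3 rose in KD cells and 0 passed in Control cells, where 19% and 10.1% of all genes rose, and the difference of differences passed in 0 of 11. The 3 were Hey1, a Notch and BMP-induced repressor (1.35 ± 0.32; limma, adjusted p = 0.00455), Dlx2 (0.64) and Atoh8 (0.61), the last 2 named after their values were seen.

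The genes whose pattern over the 14 arrays was most like Id4 were Adgrg1 (Pearson r = 0.974), Marchf5 (0.973) and Cops6 (0.960). Adgrg1, an adhesion receptor gene, had means of 5.45 in KD cells and 5.10 in Control cells at day 0, and of 7.74 in KD cells and 5.36 in Control cells at day 7. The genes most like Bambi were Cip2a (0.974), Ube2d3 (0.966) and 4930430F08Rik (0.963). Cip2a, which encodes an inhibitor of protein phosphatase 2A, had means of 9.03 in KD cells and 10.12 in Control cells at day 0, and of 11.33 in KD cells and 11.44 in Control cells at day 7. These correlations are descriptions over 14 arrays that share their 4 groups, and they were picked as the highest of 18193 genes.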

How the data were processed

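Processed data of 14 expression arrays (KD TP53INP2 and Control 3T3-L1 cells at days 0 and 7) were used. The authors deposited log2 signals for 45101 probe sets; per the submitters' processing notes they were made with RMA and the affy package (versions not given), and per the labels' protocols RNA was amplified before biotin labelling. RMA applies quantile normalization, so a shift shared by most genes would not show, and the files used hold no detection calls. Control probe sets (64), unnamed (9160) and multi-gene sets (932) were left out. The 34945 others were matched to symbols by the platform annotation and reduced to 18193 genes by the highest mean over 14 arrays. By gene identifier, 18031 of these genes were found in the RefSeq table.

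A limma 3.58.1 model (R 4.3.3; lmFit, eBayes) with a mean for each group was fitted to all 14 arrays and gave 5 contrasts, with Benjamini-Hochberg adjustment over 18193 genes and a threshold of 0.05. Members, lists and tests were chosen with earlier results of these data known. The text names all members, up to 3 pathway genes in each direction per contrast among those past the threshold, and the 3 genes most correlated with Id4 and with Bambi; others are named as such. Deviations of KD and Control arrays of the same number correlated within each day (0.225 to 0.321 at day 0, 0.253 to 0.736 at day 7). They did not correlate in every pair between days (0.00401 to 0.218), so a replicate block bears on KD minus Control results. At day 7 unlike numbers correlated too, at 0.611 for KD 1 with Control 2 and 0.551 for KD 2 with Control 1. The same numbers gave 0.524 and 0.592, so numbers 1 and 2 are not settled as pairs. These correlations left out the dimmest 40% of genes. The fit was tested on simulated data. The number of arrays limits the precision.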

Additional observations from a re-analysis of the deposited data

Results flagged for a closer look

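Among 22 groups of 4 arrays looked at, 1 held an array far from the others. Id2 read 6.16 in the Control array of replicate 4 at day 7, against 7.97 to 8.17 in the other 3, and its gap to the nearest array was 0.899 of the group's range. Chance marks about 1 in 20 such groups. The KD array of the same number was also the lowest of its group, at 6.79.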

How the results depend on the processing

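Alternatives covered the replicate block, averaging replicates 1 and 2, 2 other scalings, a filter on dim genes, 2 other choices of probe set, the eBayes settings, only the arrays compared and leaving out each array. The 2 fits added after seeing the data were the block within each day and leaving out both day 7 arrays of number 4. The cause of each change below was not tested. Scaling to 1 median moved the median of all genes at day 0 to 0.112 (main -0.0514) and that of the difference between days to -0.102.

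Counts past the threshold are of the tested genes, 9 on each day and 8 for the other contrasts. At day 0 (0) they became 1 with the replicate block (3.14% of all genes) and 2 with the block within each day (4.64%). Without the number 4 arrays 1 passed (1.79%), and leaving out an array gave 0 to 1 (0.555% to 3.47%). At day 7 (0) they were 2 with either block (10.2% and 14.7% of all genes) and 2 on arrays scaled to 1 median (5.86%). They were 3 without the dimmest 40% of genes (16.8% of the genes kept) and 2 with a trend and robust eBayes (8.55% of all genes). Leaving out an array gave 0 to 2 (2.03% to 15.9%), with 2 without KD day 7 replicate 3 (15.9%). For differentiation in KD cells (4) they were 7 with the block (38.8% of all genes) and 2 with the most variable probe set (36.9%). Leaving out an array gave 4 to 6 (30% to 37.9%). In Control cells (4) they were 2 with replicates 1 and 2 averaged (8.71% of all genes) and 2 to 5 leaving out an array (16.5% to 25%). The counts of 2 came without Control day 0 replicate 1 (16.5%) or 2 (17%). For the difference between days leaving out an array gave 0 to 0.

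Pathway genes at day 0 (1) became 0 with averaging, with either scaling and without dim genes. They were also 0 with only the arrays compared and without the number 4 arrays. The most variable probe set gave 4 (2.31% of all genes) and the mean over sets 2 (1.91%). Leaving out an array gave 0 to 2 (0.555% to 3.47%). At day 7 (4) they were 0 with averaging (0.352% of all genes), 7 with trend and robust eBayes (8.55%), 2 without the number 4 arrays (1.2%), 11 with the block within each day (14.7%) and 3 to 15 leaving out an array (15 without KD day 7 replicate 3, where 15.9% of all genes passed). For the difference between days (0) they were 0 to 2. For differentiation in Control cells (27) averaging gave 14 (8.71% of all genes), and leaving out an array gave 23 to 29 (16.5% to 25%). In KD cells (36) leaving out an array gave 32 to 39 (30% to 37.9%). The block for differentiation uses numbers whose arrays correlated only weakly between days (0.00401 to 0.218), so whether they pair arrays there is not settled.

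Signs turned in the following results. KD minus Control of Bmpr1a at day 0 (main -0.004) was 0.00133 with averaging, 0.16 on arrays scaled to 1 median, 0.022 after a further quantile step and -0.026 to 0.019 leaving out an array. With the most variable probe set Bmpr1a was -0.056 at day 7 and -0.28 for differentiation in Control cells, Bmpr2 was 0.69 at day 7 and 0.62 for the difference between days, and Smad7 was -0.23 at day 0 and 0.048 for the difference. The mean over sets gave 0.13 for Bmpr2 at day 7 and -0.0799 for Smad7 at day 0, and scaling to 1 median gave -0.091 for the difference of Bmpr1a. Leaving out an array, KD minus Control ranged over -0.032 to 0.87 for Id2, -0.12 to 0.53 for Id3, -0.29 to 0.16 for Bmp4, -0.037 to 0.11 for Bambi and -0.48 to 0.060 for Smad7 at day 7, and over -0.036 to 0.074 for Bmpr2 and -0.15 to 0.21 for Smad7 at day 0. It ranged over -0.49 to 0.41 for the Id2 difference between days and over -0.017 to 0.43 for Smad6 differentiation in Control cells. Every value of Id4 and Bambi that is described and not tested kept its sign under all alternatives run.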
